A study of Mus musculus with 6 samples.

Results

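Complex I, the NADH:ubiquinone oxidoreductase of the mitochondrial inner membrane, was followed through its nuclear subunit genes in RNA-seq of primary mouse chondrocytes, the cells of cartilage put into culture. The genes were taken by symbol: every gene whose name is Ndufa, Ndufb, Ndufc, Ndufs or Ndufv followed by a number and nothing else, which leaves out assembly factors and pseudogenes. This rule found 36 of the 55401 genes in the table. The 3 Nf2-knockout and 3 control libraries all came from chondrocytes with the floxed Nf2 gene (Nf2f/f), given by the series' design text as knocked out in the first group and not in the second. Nf2 encodes merlin, a membrane-associated protein upstream of the Hippo kinases. A treatment label gives the knockout libraries as TCF21 overexpressing, whereas their titles name only the Nf2 knockout. The Cre driver, the exons deleted and the age and strain of the mice are not given in the sources used here. What the code D7 in the library names stands for is not given there either.

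Complex I takes electrons from NADH and passes them along a chain of iron-sulfur clusters to ubiquinone, and it uses the energy released to pump protons out of the mitochondrial matrix. Its peripheral arm reaches into the matrix and holds the NADH site, the clusters and the ubiquinone site. Its membrane arm holds the proton pumps, whose core subunits are encoded by the mitochondrial chromosome, while all other subunits are made from nuclear genes and imported. Core subunits have counterparts in bacteria and carry out catalysis, and accessory subunits surround them and are needed for assembly and stability. Chondrocytes live in a tissue without blood vessels and are known for their reliance on glycolysis, though they keep a working respiratory chain.

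Library totals ranged from 50906043 to 63748798 counts, and from 21289 to 22108 genes had a count. Nf2 had 95.2 ± 6.58 CPM (counts scaled to library size) in knockout and 127 ± 5.32 in control libraries (mean ± SD, n = 3 each). Its log2 fold change was −0.41 (SE 0.0866, edgeR adjusted p = 0.0305), a call that was lost in every fit that left out 1 library, with adjusted p up to 0.123. A count over the whole gene does not show how far the deletion went, since the deleted exons are not given in the sources used here. Tcf21 had 2 counts in knockout library 2 and 0 in each of the other libraries, whereas the treatment label names TCF21 as overexpressed. Counts of the mouse gene cannot show a construct with another sequence, so they do not decide on the label. Whether the replicates stem from different animals or cultures is not given in the labels, so p-values measure library spread alone, part of which may be technical. All 14 chondrocyte markers were detected, the lowest being Chad at means of 0.414 CPM in knockout and 1.02 CPM in control libraries. The summed level of the 14 was 1030 to 1937 CPM in knockout and 875 to 1292 CPM in control libraries. Fibroblast markers, given further below, summed to more in every library. Single markers went both ways: Col2a1 rose by 1.33 on the log2 scale (edgeR adjusted p = 0.0446) and Col9a2 fell by 1.56 (edgeR adjusted p = 0.0483), each called in 1 of the 6 fits without a library.

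No complex I subunit gene rose and 8 fell in Nf2-knockout chondrocytes: Ndufv2, Ndufs1 and Ndufs3 of the catalytic core, Ndufa6 and Ndufs6 of the accessory peripheral arm, and Ndufb8, Ndufb9 and Ndufb11 of the distal membrane arm. All 36 genes passed the filter on low counts, so 22.2% fell, beside 5.18% of the 18218 genes tested (9.29% changed in either direction). Genes that rose made up 4.11% of all genes tested. The changes were modest, from −0.33 to −0.71 on the log2 scale among the 8 genes. The log2 fold change was below 0 for 35 of the 36 members, beside 51.1% of all genes tested, with a median of −0.33 against −0.01 for all genes. An unadjusted p under the threshold of 0.05 was reached by 21 members (58.3%), beside 24.8% of all genes tested. Every knockout library lay below every control library for 22 members (61.1%), beside 17.4% of all genes, and above for none, beside 15.5%. For the other 14 members the groups overlapped.

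The number of subunits called depended on the test, and none was called higher in any setting. DESeq2 on the same counts called 16 members lower, the same 8 among them, beside 8.37% of all genes. Median-of-ratios factors in edgeR gave 6 members beside 4.85% of all genes, and no filter on low counts gave 5 beside 2.72%. Scaling by total count in place of TMM, which sets the typical gene and not the total equal across libraries, gave 4 beside 3.88%. That scaling moved the median of all genes from −0.01 to 0.09 and the balance over the whole table from 749 higher and 944 lower genes to 1130 higher and 707 lower. The members' median nevertheless lay below that of all genes by 0.23 to 0.38 on the log2 scale in every setting tried.

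A replicate block left 4 members lower beside 2.93% of all genes. Tests of FPKM with limma gave 4 members lower beside 5.18% of all genes with 1 added before the log, 4 beside 5% with 0.1 added and 3 beside 1.47% without a filter. After median-of-ratios scaling, an alternative chosen after the data were seen, limma gave 8 beside 6.62%. With 1 library left out, the count was 2 without knockout library 1 (beside 1.7% of all genes) or without knockout library 3 (beside 2.16%). It was 4 without knockout library 2 (beside 3.75%), control library 1 (beside 2.79%) or control library 2 (beside 2.02%), and 5 without control library 3 (beside 3.14%).

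The summed level of the 36 genes was 3714, 3484 and 3310 CPM in knockout libraries 1 to 3 and 4030, 4626 and 4656 CPM in control libraries 1 to 3. The groups did not overlap on this scale, at means of 3503 ± 202 and 4437 ± 353 CPM (SD, n = 3 each), and control library 1 stood nearest to the knockout libraries. In FPKM, the deposited fragment values scaled to gene length and total count, the sums were 2742, 2490 and 2402 in knockout libraries and 2678, 3141 and 3091 in control libraries. On that scale knockout library 1 lay above control library 1. Knockout library 3 held the lowest value of 18 of the 36 members, and control library 3 held the highest of 20. Relative to the mean of the control libraries, the median member stood at −0.26, −0.34 and −0.38 on the log2 scale in knockout libraries 1 to 3 and at −0.13, 0.03 and 0.06 in control libraries 1 to 3.

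**Figure D1:**
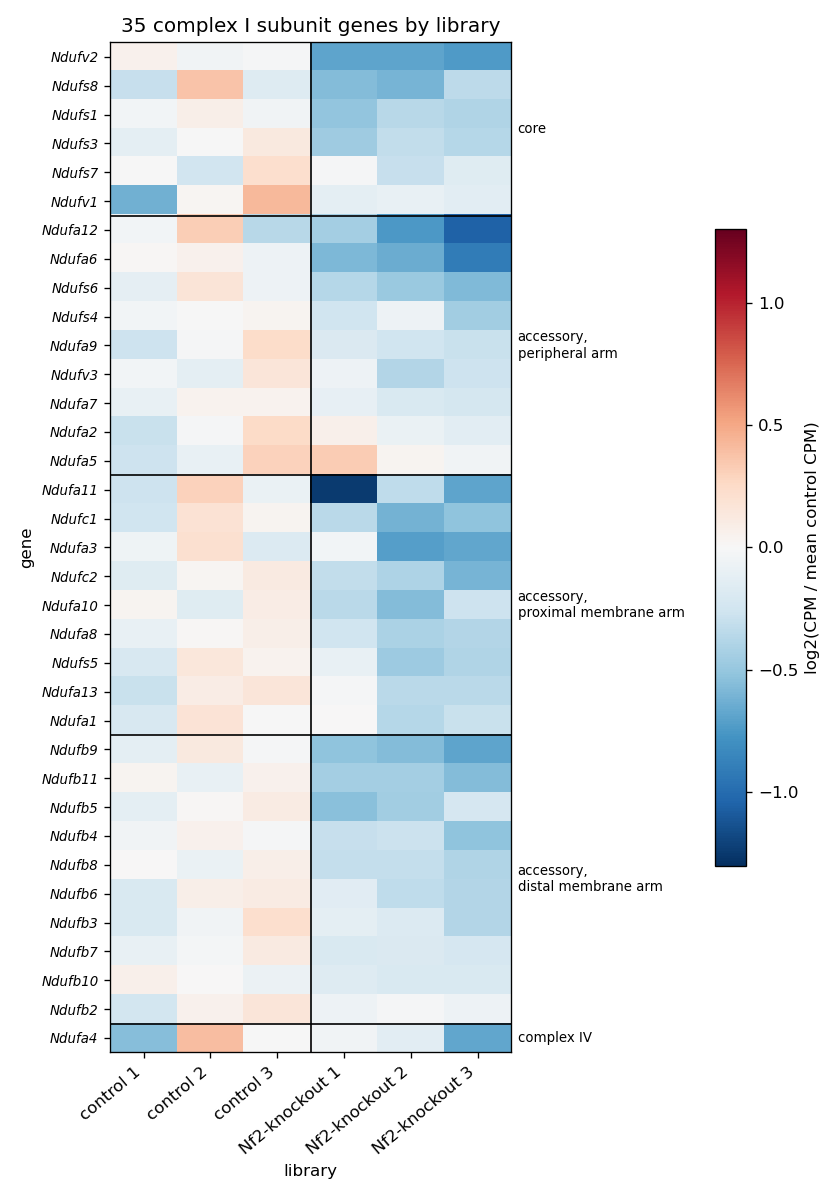
Level of 35 subunit genes (rows, grouped by place in the complex) in each of the 6 libraries (columns), coloured by the log2 ratio of its CPM to the control mean. Knockout columns are mostly on the lower side, control library 1 lies between the groups for many genes, and Ndufa5 is the one gene with a fold change above 0.

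Some markers of other cell types moved with the groups as well. The 13 macrophage and myeloid markers summed to 110, 82.6 and 47.8 CPM in knockout libraries 1 to 3 and to 151, 407 and 202 CPM in control libraries 1 to 3. Of these 13, 5 fell (38.5%, beside 5.18% of all genes tested) and none rose, with a median log2 fold change of −2.36. With 1 library left out, 0 to 2 of them were lower, and none was called in all 6 fits. No macrophage or myeloid marker was at 0 in all libraries, though Ptprc was at 0 in knockout library 3. The 8 fibroblast markers summed to between 8103 and 10320 CPM in knockout and between 12000 and 15350 CPM in control libraries. Of these 8, 2 were lower (25%, beside 5.18% of all genes tested) and none higher. Pdgfra kept its call in all 6 fits without a library and Lum in 2. In all, 5 of the 8 were below 0, while Col1a1, Postn and Thy1 stood at 0.01, 0.26 and 0.38. The 7 pericyte and smooth muscle markers summed to between 506 and 841 CPM in knockout and between 375 and 417 CPM in control libraries. Of these 7, 2 were higher, beside 4.11% of all genes tested, and none lower. The gap between the sums came with Acta2 and Rgs5, the 2 that rose. Of the 7 markers, 4 were below 0 and the median was −0.07. Without Acta2 the sums overlapped, at 244 to 312 against 243 to 264 CPM. The fibroblast and macrophage sums did not overlap without their most abundant markers, Col1a1 and Lyz2. Among markers of low level, the hypertrophic marker Col10a1 rose by 2.35 on the log2 scale (edgeR adjusted p = 0.00417) and the endothelial marker Kdr by 1.36 (edgeR adjusted p = 0.0196). The Col10a1 call held in all 6 fits without a library and that of Kdr in 2. The rest of their lists did not share these rises. Runx2 and Mef2c of the hypertrophic list stood at −0.60 and −0.43, and Ihh was too low to test. Of the endothelial list, Pecam1 stood at −0.15 and Tek at 0.68, neither called, and Cdh5 was too low to test. The part of these markers in the results for complex I was not tested. In these bulk libraries, fewer cells of a type and less RNA per cell cannot be told apart.

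The starts of these genes are shown because nuclear respiratory genes are known for recurring binding letters of NRF1, of the ETS factor GABPA (also called NRF2) and of YY1. The windows are those of RefSeq (build GRCm38.p6), 300 bases each, from 250 before to 50 after a start, and 32 of the 36 members have an entry. Shares of members are counted per gene, over 34 windows. Shares of all are counted per window, whether or not the gene was among those tested. Searched on both strands, GCATGCG (NRF1) was found in 3 of 32 members (9.38%) beside 3.58% of all 32851 windows. CCGGAAG (GABPA) was found in 4 members (12.5%) beside 8.86%. AAGATGG (YY1) was found in 7 members (21.9%) beside 6.34%. The GABPA and YY1 letters can overlap by sharing AAG, but no member held more than 1 of the motifs. Any of the 3 was found in 14 members (43.8%) beside 17.3% of all windows, in 4 of the 6 called members with an entry and in 10 of the 26 others. A match describes letters and not binding.

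All 7 YY1 matches lay on the gene's own strand and began 23 to 39 bases after the start. A match on that strand anywhere after the start was found in 1.3% of all windows. Strand and side were set to those of the 7 matches, so this share is a description and no test. They are shown with up to 10 bases on each side, the motif in capitals, 5′ to 3′ along the gene. The motif itself contains ATG, the letters of a start codon.
Ndufs6, chr13:73328433-73328459, minus strand: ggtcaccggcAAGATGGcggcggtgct
Ndufb8, chr19:44555393-44555414, minus strand: ggagaaggtgAAGATGGctgcc
Ndufs4, chr13:114388045-114388069, minus strand: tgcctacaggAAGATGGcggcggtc
Ndufs7, chr10:80249463-80249489, plus strand: ggccgaggccAAGATGGcggcgctggc
Ndufa9, chr6:126849099-126849125, minus strand: attgtgggagAAGATGGcggccgccgt
Ndufa3, chr7:3617385-3617411, plus strand: cgccaagaacAAGATGGccgggagtaa
Ndufc1, chr3:51408917-51408943, minus strand: cctgcggaacAAGATGGcgccgtccgt
Of these genes, Ndufs6 and Ndufb8 fell and the other 5 were not called.

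The NRF1 letters were found upstream of the start of 3 genes, shown in the same way. In Ndufa11 and Ndufa8 the capitals span 8 bases, since the motif matched on both strands with an offset of 1 base.
Ndufa6, chr15:82354358-82354384, minus strand: ccgcggtagaGCATGCGcattgcagag
Ndufa11, chr17:56717693-56717720, plus strand: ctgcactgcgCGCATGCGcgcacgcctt
Ndufa8, chr2:36049330-36049357, minus strand: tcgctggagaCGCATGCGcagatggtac
Among the members with GABPA letters, Ndufs3 was the one with 2 matches, and it was also the one that fell. The upstream match, 27 bases before its start, and the one just after the start, which reads as the reverse complement along the gene, are shown.
Ndufs3 upstream, chr2:90904732-90904758, minus strand: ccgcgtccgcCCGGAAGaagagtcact
Ndufs3 downstream, chr2:90904704-90904730, minus strand: cacatttccaCTTCCGGtccgtgccct
Ndufb6, Ndufb7 and Ndufs8 held 1 match each and were not called.

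Among the 7 core subunits of the peripheral arm, 3 fell (42.9%, beside 5.18% of all genes tested) and none rose. The median log2 fold change of the 7 was −0.38. Differences in calls between places in the complex were not tested. Ndufv2 (ENSMUSG00000024099, chromosome 17, 66078638 to 66101559 on the minus strand, GRCm38), an iron-sulfur subunit of the NADH-oxidising tip, had the smallest p of all members. Its level was 114, 114.5 and 110.5 CPM in knockout libraries 1 to 3 and 191, 178 and 182 CPM in control libraries 1 to 3. The libraries of each group sat close together and the groups were far apart. Ndufv2 fell by 0.70 on the log2 scale (SE 0.0743, edgeR adjusted p = 0.00431), a mean 38.5% below control, and kept the call in all 6 fits that left out 1 library. Its partner at the tip, Ndufv1, binds NADH and the flavin, and its knockout libraries were as close together, at 79.9, 81.7 and 79.1 CPM. The control libraries of Ndufv1 ran from 56.6 over 88.7 to 117 CPM and straddled them. The log2 fold change of Ndufv1 was −0.12 (SE 0.234, edgeR adjusted p = 0.801), the smallest of the core, and it turned to 0.14 without control library 3.

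Ndufs1 (ENSMUSG00000025968, chromosome 1, 63143596 to 63176822, minus strand), the largest core subunit and a carrier of several iron-sulfur clusters, measured 135, 151 and 148 CPM in knockout and 188, 205 and 187 CPM in control libraries, without overlap. It fell by 0.42 on the log2 scale (SE 0.0838, edgeR adjusted p = 0.026). That call held in 1 of the 6 fits that left out a library, the one without control library 3, and adjusted p reached 0.113 in the others. Ndufs3 (ENSMUSG00000005510, chromosome 2, 90894634 to 90904827, minus strand), a core subunit near the ubiquinone site, measured 80.2, 88.1 and 85.2 CPM in knockout and 100.6, 109.9 and 120 CPM in control libraries. It fell by 0.38 (SE 0.0942, edgeR adjusted p = 0.0494). The groups were separate, but the call was lost in all 6 fits that left out a library, at adjusted p of 0.0536 to 0.186.

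Ndufs8, which holds iron-sulfur clusters on the path to ubiquinone, had a log2 fold change of −0.50 with an SE of 0.183. Its control libraries spread from 81.8 to 130.5 CPM, and its adjusted p in edgeR was 0.146. Ndufs7, which holds the last cluster before ubiquinone, overlapped between groups, at a log2 fold change of −0.15.

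**Figure D2:**
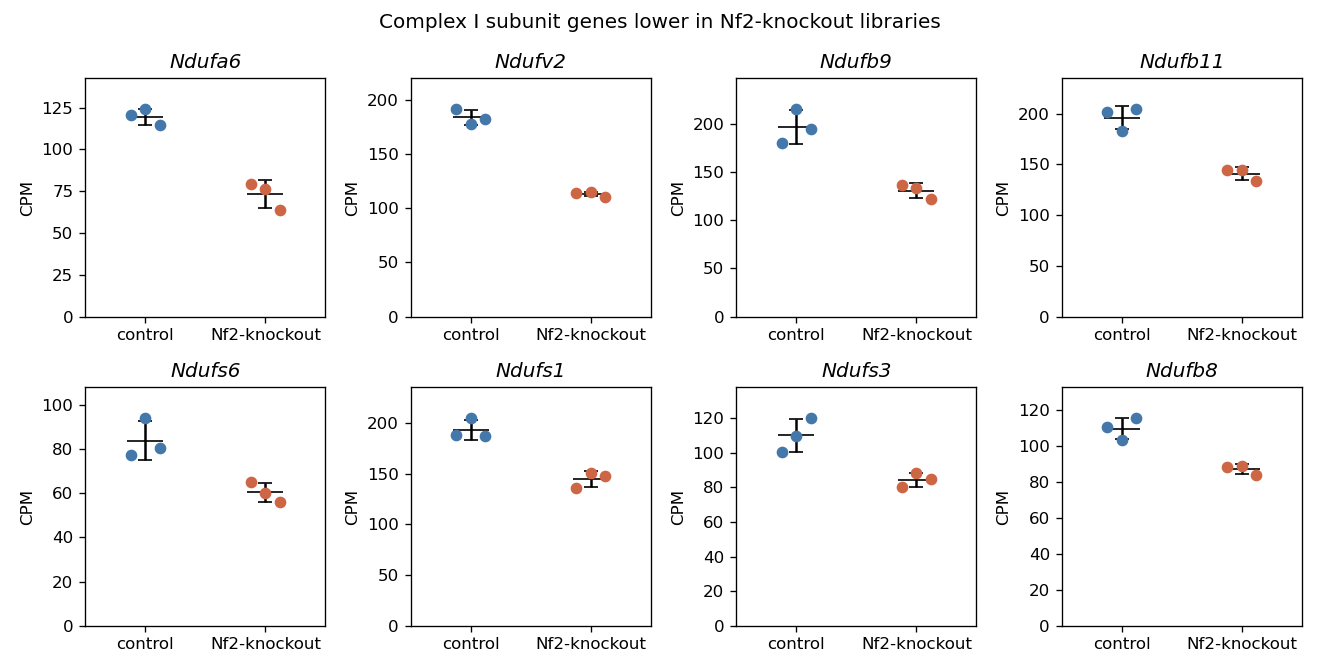
CPM of the 8 called subunit genes in each library (points, 3 Nf2-knockout and 3 control, axes starting at 0), with the mean and SD of each group. No panel shows an overlap between the groups, and the gap is widest relative to the spread for Ndufv2.

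The 9 accessory subunits of the peripheral arm had 2 genes that fell (22.2%, beside 5.18% of all genes tested) and a median of −0.24. Ndufa6 (ENSMUSG00000022450, chromosome 15, 82350140 to 82354322, minus strand), a LYR-motif protein that docks an acyl carrier protein on the complex, measured 79.5, 76.4 and 63.9 CPM in knockout and 120.5, 124 and 114 CPM in control libraries. It fell by 0.71 on the log2 scale (SE 0.104, edgeR adjusted p = 0.0103). With Ndufv2 it was one of the members called in all 6 fits that left out a library. Ndufs6 (ENSMUSG00000021606, chromosome 13, 73319838 to 73328462, minus strand), a zinc-binding subunit, measured 65.1, 60.2 and 56.3 CPM in knockout and 77.5, 94.1 and 80.5 CPM in control libraries. It fell by 0.47 (SE 0.108, edgeR adjusted p = 0.0387). Each of the 6 fits that left out a library lost this call, at adjusted p of 0.0572 to 0.128.

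Ndufa12, which sits on the same arm and is related to the assembly factor Ndufaf2, had the largest log2 fold change of all 36 genes, −0.72 (SE 0.21), yet was not called (edgeR adjusted p = 0.0813). It measured 64.4, 52.3 and 42.2 CPM in knockout and 85.5, 109 and 68.2 CPM in control libraries. The groups did not overlap, but knockout library 1 and control library 3 were close. Ndufa5 was the one member with a fold change above 0. Its knockout libraries, at 96.2, 78.7 and 74.3 CPM, overlapped with the control libraries, at 63.8, 71.8 and 94.5 CPM. The log2 fold change of Ndufa5 was 0.11 (SE 0.169, edgeR adjusted p = 0.733), and it was −0.0022 without control library 1.

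Ndufa2, a small subunit with a thioredoxin-like fold, was the most abundant of this group per length, at 211 FPKM in knockout and 203 FPKM in control libraries on average. In CPM it measured 140, 126 and 122 in knockout and 109.7, 133 and 159 in control libraries, which overlapped. Its log2 fold change of −0.05 (SE 0.142, edgeR adjusted p = 0.87) changed sign with the scaling, at 0.05 under total count scaling. Ndufs4, a subunit known for its loss in mouse models of Leigh syndrome, and Ndufa7 were lower in every knockout than in every control library, at log2 fold changes of −0.25 and −0.18 that were not called. Ndufa9, which has the fold of a short-chain dehydrogenase, and Ndufv3 overlapped between groups, at −0.24 and −0.23.

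The 9 accessory subunits of the proximal membrane arm, which holds the part next to the peripheral arm, had no gene called with edgeR. Over all genes tested, 5.18% fell and 4.11% rose. The median log2 fold change of the 9 was nevertheless −0.39, and all 9 were below 0. An unadjusted p under 0.05 was reached by 5 of the 9, beside 24.8% of all genes tested. DESeq2 called 5 of the 9 lower, beside 8.37% of all genes. Ndufa11, an integral membrane subunit, had the largest change, −0.70 (SE 0.247, edgeR adjusted p = 0.131). It measured 27.2, 51.5 and 40.1 CPM in knockout and 53.5, 79.3 and 60.7 CPM in control libraries. Knockout library 1 was the lowest of all, and knockout library 2 reached nearly to control library 1. Ndufc1 and Ndufc2 of this arm had log2 fold changes of −0.49 (edgeR adjusted p = 0.0663) and −0.44 (edgeR adjusted p = 0.0571), and neither overlapped between groups.

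Ndufa1, a small membrane protein encoded on the X chromosome, was the most abundant of the 36 genes per length, at 248 ± 34.6 FPKM in knockout and 267 ± 35.2 FPKM in control libraries (SD, n = 3 each). In CPM it measured 129.7, 99.5 and 105 in knockout and 112, 146 and 129 in control libraries, with overlap. It also had the smallest change of its group, a log2 fold change of −0.21 (SE 0.139, edgeR adjusted p = 0.412). Ndufa10, related to nucleoside kinases, stood at −0.39 (edgeR adjusted p = 0.0767) and Ndufa8, of the intermembrane space side, at −0.35 (edgeR adjusted p = 0.0543), each without overlap. Ndufa3, Ndufs5 and Ndufa13, the last also known as GRIM-19, overlapped between groups at −0.44, −0.31 and −0.23.

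The 10 accessory subunits of the distal membrane arm had 3 genes that fell (30%, beside 5.18% of all genes tested). The median of the 10 was −0.31, and all 10 were below 0. Ndufb9 (ENSMUSG00000022354, chromosome 15, 58933756 to 58939488, plus strand), the other LYR-motif protein of the complex, measured 137, 133 and 122 CPM in knockout and 180.4, 215 and 195 CPM in control libraries. It fell by 0.59 on the log2 scale (SE 0.0961, edgeR adjusted p = 0.0137) with a wide gap between groups. The call was lost without knockout library 1 (adjusted p = 0.0519) and without knockout library 3 (adjusted p = 0.0539). Ndufb11 (ENSMUSG00000031059, X chromosome, 20615326 to 20617619, minus strand), a single-pass membrane protein, measured 144, 145 and 133 CPM in knockout and 201, 183 and 204 CPM in control libraries. It fell by 0.48 (SE 0.0839, edgeR adjusted p = 0.0174). The call of Ndufb11 held in 3 of 6 fits and was lost without control library 1, knockout library 1 or knockout library 3, at adjusted p of 0.051, 0.075 and 0.0768.

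Ndufb8 (ENSMUSG00000025204, chromosome 19, 44548572 to 44555440, minus strand), whose protein is widely used as a blot marker of assembled complex I, measured 88.4, 88.8 and 83.8 CPM in knockout and 110.4, 103 and 115 CPM in control libraries. It fell by 0.33 on the log2 scale (SE 0.081, edgeR adjusted p = 0.0471). All 6 fits without a library lost that call, at adjusted p of 0.0863 to 0.175. Per length, Ndufb11 in control libraries (188 FPKM) and Ndufb6 in knockout libraries (158.5 FPKM) were the most abundant of this arm. Ndufb6 measured 123, 108 and 105 CPM in knockout and 119, 143 and 147 CPM in control libraries, an overlap of knockout library 1 with control library 1. Its log2 fold change was −0.28 (SE 0.114, edgeR adjusted p = 0.18).

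At the other end, Ndufb2 measured 45.1, 46.9 and 45.1 CPM in knockout and 40.1, 49.1 and 52.6 CPM in control libraries, which enclosed them. Its log2 fold change of −0.05 (SE 0.119, edgeR adjusted p = 0.848) turned to 0.05 under total count scaling. Ndufb4 and Ndufb5 stood at −0.36 and −0.40 without overlap and were not called by edgeR (adjusted p = 0.0599 and 0.0771). Ndufb7 and Ndufb10, proteins of the intermembrane space side, were also separate between groups, at −0.20 and −0.19, with knockout libraries that hardly varied (SD 0.736 and 1.81 CPM). Ndufb3 overlapped, at −0.22.

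Ndufa4 carries the family name but its protein is now counted with complex IV, cytochrome c oxidase. It had the widest spread among the members in CPM, at 209, 196 and 136 CPM in knockout and 147, 286 and 216 CPM in control libraries. The groups overlapped throughout, and the log2 fold change of −0.26 had an SE of 0.258 (edgeR adjusted p = 0.595). It shrank to −0.01 in the fit without control library 2.

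**Figure D3:**
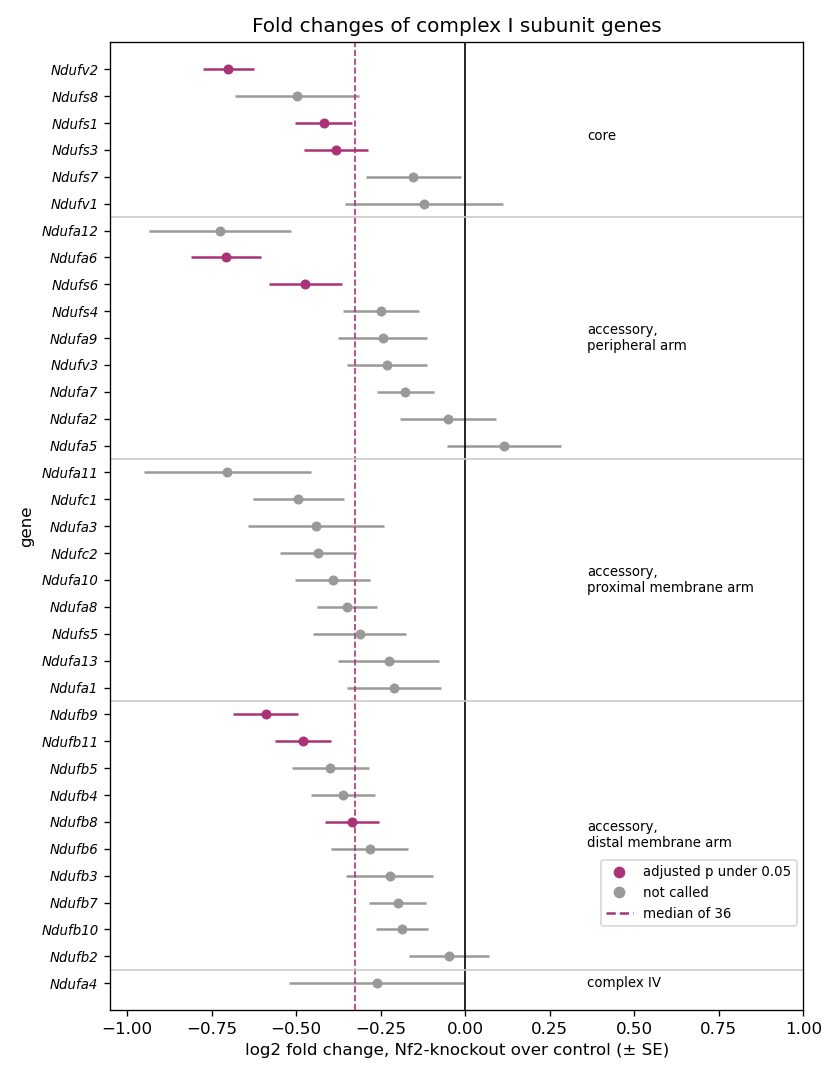
Log2 fold change of 35 members, Nf2-knockout over control, with its approximate SE as a bar, grouped by place in the complex. Filled coloured points mark the 8 called genes, the dashed line marks the median of −0.33 over all 36 members, and Ndufa5 alone lies to the right of 0.

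**Figure D4:**
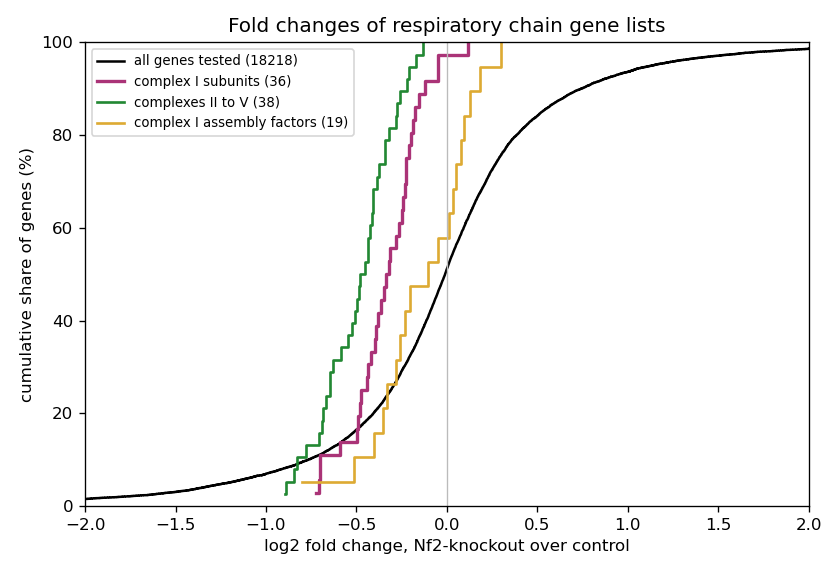
Cumulative share of genes (vertical axis, percent) against log2 fold change (horizontal axis, shown from −2 to 2) for the members, for nuclear subunits of complexes II to V, for complex I assembly factors and for all genes tested. Except at the lowest fold changes, the subunit curves lie to the left of the curve for all genes, with medians of −0.33 and −0.47, and the assembly factors lie nearer to it, at −0.11.

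Near-identical copies can take reads from a subunit gene. Aligned against annotated transcripts, the coding sequences of 12 members matched 14 copies at 90% identity or more over at least 80% of their length. The copies held over 10% of the member's count for Ndufa12 and Ndufs5. For Ndufa12, the copy Gm15920 on chromosome 5 (130188395 to 130188796) had 81.5% as many counts as the gene, and it fell by 0.56 on the log2 scale by itself (SE 0.131, edgeR adjusted p = 0.0433). It measured 41.9, 49.7 and 45.3 CPM in knockout and 76.2, 56.8 and 68.7 CPM in control libraries. Whether these reads came from the copy or from Ndufa12 cannot be told apart in these counts. With the counts added, Ndufa12 measured 106, 102 and 87.5 CPM in knockout and 162, 166 and 137 CPM in control libraries. The sum fell by 0.65 (SE 0.114, edgeR adjusted p = 0.0178), and its groups were more widely separated than those of the gene alone.

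Ndufb4 passed the threshold in the same way. With Ndufb4c added, which held 9.34% as many counts, its log2 fold change was −0.37 (SE 0.0785, edgeR adjusted p = 0.0312), at 85.0, 86.3 and 80.2 CPM in knockout and 112, 109.2 and 104 CPM in control libraries. Ndufs5 with its copy BC002163, which held 57.5% as many counts, stood at −0.32 and was not called (edgeR adjusted p = 0.0936). Its sums of 87.3, 77.6 and 79.2 CPM in knockout and 94.0, 99.3 and 112 CPM in control libraries no longer overlapped. Ndufs3 and Ndufs6 kept their calls with copies added (edgeR adjusted p = 0.0499 and 0.0418). In all, 10 members were then lower, beside 8 in the fit of the genes alone, where 5.18% of all genes tested fell. The share of all genes that fell in the fit with copies added is not given here. The sums of counts were an alternative chosen after the data were seen.

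**Figure D5:**
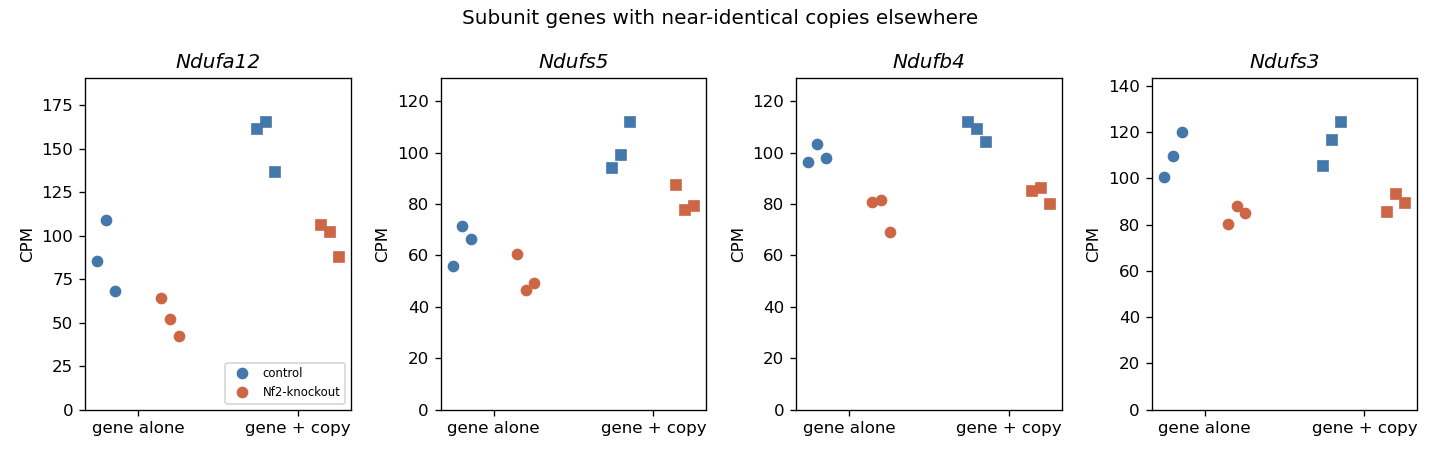
CPM of members with near-identical copies, the gene alone (circles) and with the counts of its copies added (squares), in each of the 3 Nf2-knockout and 3 control libraries (axes from 0). For Ndufa12 the sums are 87.5 to 106 in knockout and 137 to 166 in control libraries.

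Exons of another annotated gene overlapped those of 15 members, and for 7 of them the overlapping genes held counts above 10% of the member's. Among the called genes this touched Ndufb11, which shares 117 exonic bases with Rbm10, Ndufs6, which shares 30 with Mrpl36, and Ndufs1, which shares 9 with Eef1b2. All 3 neighbours lie on the opposite strand, and since the counting is not stated to use strand, reads in the shared bases cannot be told apart. Ndufv2 and Ndufa6 overlapped with no other gene and had no near-identical copy. Levels in FPKM carry a limit of their own. With summed counts taken as the total, the deposited values of every member matched 1.11 times the length of its merged annotated exons. A factor shared by all members can lie in the total used and not in the length. Since the lengths followed the merged exons, genes whose rare transcripts add long exons read low. For Ndufs1 the merged exons span 8.09 kb while its longest transcript has 2.66 kb, and its level was 16.7 FPKM in knockout and 20.8 FPKM in control libraries on average.

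A further 11 genes related to complex I fall outside the naming rule: the 7 subunits encoded by the mitochondrial chromosome, Ndufab1, Ndufb1-ps, the Ndufa4 paralogue Ndufa4l2 and the copy Ndufb4c. All 11 were below 0 and 1 fell (beside 5.18% of all genes). That was mt-Nd2, a core proton-pumping subunit encoded by the mitochondrial chromosome, at 4840, 4461 and 4485 CPM in knockout and 7433, 6102 and 6055 CPM in control libraries. It fell by 0.51 on the log2 scale (SE 0.115, edgeR adjusted p = 0.0387), and no fit without a library kept the call. mt-Nd1 stood at −0.49 (edgeR adjusted p = 0.0517). Counts of the mitochondrial chromosome made up 7.65%, 7.44% and 7.65% of all counts in knockout libraries and 10.3%, 8.49% and 8.29% in control libraries. Ndufab1, the acyl carrier protein that binds Ndufa6 and Ndufb9, measured 52.9, 61.8 and 65.2 CPM in knockout and 97.4, 74.4 and 76.5 CPM in control libraries. The groups of Ndufab1 did not overlap, and its log2 fold change of −0.47 was not called (SE 0.136, edgeR adjusted p = 0.0834).

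Assembly factors build the complex and are not part of it. Of 19 tested, 11 were below 0, beside 51.1% of all genes tested, with a median of −0.11. None rose and 1 fell, a share of 5.26% that is near the 5.18% of all genes. The gene that fell was Dmac2, which takes part in building the distal membrane arm, at 11.5, 14.4 and 10.8 CPM in knockout and 20.8, 22.03 and 21.2 CPM in control libraries. It fell by 0.80 (SE 0.14, edgeR adjusted p = 0.0171), and 3 of 6 fits without a library kept the call. Nuclear subunits of complexes II to V fell in 22 of 38 genes tested (57.9%, beside 5.18% of all genes), with all 38 below 0 and a median of −0.47. That count was 6 without knockout library 1 or 3, 7 without control library 2 and 13 without control library 3. It was 14 without knockout library 2 and 19 without control library 1, beside 1.7% to 3.75% of all genes over these fits. In all 6 of these fits, 5 of the genes were called. The difference between the shares of these lists and the 8 of 36 for complex I was not tested.

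Among 13 regulators of mitochondrial biogenesis, Ppargc1a fell and no other gene passed the test, a share of 7.69% beside 5.18% of all genes that fell. Ppargc1a encodes PGC-1α, a coactivator that acts with NRF1, GABPA and ERRα on respiratory genes. It measured 41.5, 51.8 and 43.1 CPM in knockout and 147, 153 and 114 CPM in control libraries, with no overlap and a wide gap. The log2 fold change was −1.60 (SE 0.145, edgeR adjusted p = 0.00332), and all 6 fits that left out a library kept the call. Its partners were not called: Esrra, which encodes ERRα, stood at −0.46 (edgeR adjusted p = 0.118) and Gabpa at −0.34 (edgeR adjusted p = 0.0996). Nrf1, Yy1 and Tfam, the last a factor for transcription of the mitochondrial chromosome, stood at 0.16, −0.05 and 0.00 with adjusted p of 0.567, 0.709 and 0.992 in edgeR.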

How the data were processed

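RNA-seq of 6 libraries, 3 Nf2-knockout and 3 control, was grouped by the sample titles. The authors deposited 1 table with whole-number read counts and FPKM for each of 55401 genes; per the submitters' processing notes cutadapt 1.9, HISAT2 2.0.4, StringTie 1.3.4d and edgeR were used, with no roles given. The aligner settings, strand and genome build are not given in the sources used here. Deposited FPKM were scaled by the authors to length and total count, and a count of 0 was written as 0.0001. Positions equalled those of GENCODE M21 (GRCm38) for 94.2% of 55141 genes, and for 27 of the 36 members.

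Counts were tested with edgeR 4.0.16 in R 4.3.3 (filterByExpr, TMM, glmQLFTest on group alone, two-sided, Benjamini-Hochberg over 18218 genes, threshold 0.05). CPM use TMM library sizes. The SE is approximate, obtained by dividing the size of the log2 fold change by √F. Alternatives were DESeq2 1.42.0, other scalings, no filter, a replicate block, limma 3.58.1 on log2(FPKM + 1) or log2(FPKM + 0.1), and leaving out each library. Copies were found with blastn 2.17.0. Replicates differed beyond counting noise (chi-square per degree of freedom 53.9 to 89.1).

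The members and lists were chosen with earlier results of these data known. Of the 36 members, 1 is not reported here by name, though sums, counts and medians include it. The other 35 are named; full values are given for those called and, within each place in the complex, the highest in FPKM and those of largest and smallest change. Copies and overlapping genes outside these lists were named after their values were seen.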

Additional observations from a re-analysis of the deposited data

How the results depend on the processing

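No setting called a member higher. Of 36 members, 16 were lower with DESeq2, 4 with total count scaling, 5 without a filter, 4 with limma on log2(FPKM + 1), 4 on log2(FPKM + 0.1) and 3 on log2(FPKM + 1) without a filter, beside 8 as reported; leaving out 1 library gave 2 to 5. Median-of-ratios factors gave 6 and, added after seeing the data, limma after such scaling 8. The members' median was −0.22 in the 3 fits on FPKM as deposited, −0.30 after median-of-ratios scaling of FPKM and −0.39 to −0.27 without 1 library. Over all genes, 2955 were called with DESeq2 and 1062 with limma without a filter, beside 1693, and 629 to 1186 without 1 library. The cause of these shifts was not tested.

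Log2 fold changes of members that were not called changed sign. Ndufa2 and Ndufb2 stood at 0.049 and 0.0501 with total count scaling. Ndufa2, Ndufb2 and Ndufv1 stood at 0.0655, 0.0538 and 0.0384 on log2(FPKM + 1), with or without the filter, and at 0.0659, 0.0612 and 0.0416 on log2(FPKM + 0.1). Leaving out 1 library, Ndufa2 ranged from −0.174 to 0.0928, Ndufb2 from −0.154 to 0.0348, Ndufv1 from −0.355 to 0.144 and Ndufa5 from −0.0022 to 0.293, with control library 1 or 3 at each end.

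Whether replicate numbers pair the libraries is not given in the labels. Correlations of same-numbered deviations from the group means were −0.156, 0.0137 and 0.0211, and not every library correlated best with its own number. Deviations within a group of 3 depend on each other, so these correlations cannot decide whether libraries were paired. With the replicate block, 4 members were lower, 3 of them among the 8, and 923 genes were called.

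The lowest count of a member in a library was 1423 (Ndufa11, knockout library 1). Counting noise and the spread between the 3 libraries of a group were not compared for single members.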
